A study of Cardamine sp. SIM-2007 with 7 samples.

Results

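XTH16, XTH18 and XTH19 are 3 genes of the xyloglucan endotransglucosylase/hydrolase (XTH) family, and their transcripts were followed in young inflorescences of Cardamine kokaiensis, a wild crucifer related to Arabidopsis. The members were the probe sets that carry one of these symbols as their single gene in the platform annotation, and there were 3 of them, 1 for each gene, among the 13350 genes named by a probe set with 1 gene and 22746 non-control probe sets in all. They were 257203_at for XTH16 (Entrez gene 821955), 253628_at for XTH18 (Entrez gene 829151) and 253608_at for XTH19 (Entrez gene 829152). Genome positions and sequences were not used here.

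The study compared 3 kinds of flower on Arabidopsis ATH1 arrays. Cleistogamous (CL) flowers, which stay closed and pollinate themselves, followed 28 days of chilling after germination. Flowers that the submitters named intermediate (INT) followed 14 days of chilling after germination, and chasmogamous (CH) flowers, which open, followed 14 days of chilling before germination. Kind of flower and chilling therefore cannot be told apart. Each kind had 2 biological replicates, each 1 array of RNA pooled from 160 primordia of first inflorescences, and a further array carried genomic DNA from leaves of plants that had not been chilled. In pooled tissue, fewer cells of one type and less RNA per cell cannot be told apart.

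XTH enzymes work in the primary cell wall, where they cut chains of xyloglucan, the polysaccharide that lies between cellulose microfibrils, and join the new end to another xyloglucan chain or to water. In this way they rearrange or loosen the wall while cells expand, and different family members are active in different organs and respond to different hormones and stresses. In Arabidopsis, XTH18 and XTH19 are neighbouring genes of a closely related subgroup, together with XTH17 and XTH20, and are best known from roots. The names of all 3 probe sets end in _at without the added s or x by which the array's maker marks probe sets shared among Arabidopsis transcripts, but how these probes share Cardamine transcripts was not tested.

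With the offset used here, XTH18 had a larger log2 difference between closed and open flowers than XTH16 and XTH19. Its intensity on the deposited linear scale was 265.0 and 132.7 on the CL arrays, 15.8 and 127.7 on the INT arrays, and 45.4 and 16.8 on the CH arrays, replicate 1 first. Both CL arrays lay above both CH arrays and above both INT arrays, and INT overlapped CH, with INT replicate 1 at the level of the dimmer CH array and INT replicate 2 close to CL. Mean intensity was 6.39 times as high in CL as in CH and 2.30 times as high in INT as in CH. INT replicate 1 and CH replicate 2 were below the 10th percentile of their arrays, 23.3 and 22.9, and the deposited table carries no detection call, so whether XTH18 exceeded background there was not tested and these ratios carry that limit.

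Tests were made on log2 intensity after an offset of 28.2 had been added and the arrays had been quantile normalized, which makes differences of dim genes smaller. On that scale XTH18 averaged 7.76 ± 0.49 in CL, 6.35 ± 1.21 in INT and 5.85 ± 0.44 in CH (SD, n = 2 each). The difference of CL minus CH was 1.91 ± 0.65 (SE), with a 95% interval of the fit from 0.41 to 3.41 and an unadjusted limma p of 0.0190, which ranked 336 among 22746 probe sets. It did not pass after Benjamini-Hochberg adjustment over all probe sets, where limma gave an adjusted p of 0.9999. At an unadjusted p under 0.05, limma listed 3.53% of all probe sets for this contrast, and at an adjusted p under 0.05 it called 0%. The size of the XTH18 difference depended on the offset, with 2.68 for an offset of 1 and 0.95 for an offset of 141.2, where XTH16 had the larger difference of 1.099.

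XTH18 differed less clearly between the other pairs of flowers. CL minus INT was 1.41 log2 units with an interval from -0.09 to 2.91 (limma adjusted p = 0.985), and INT minus CH was 0.50 with an interval from -0.999 to 1.996 (limma adjusted p = 0.988). The mean order of CL, INT and CH from high to low therefore holds no neighbours whose difference had an interval clear of 0. Of the arrays left out in turn, the INT arrays moved the values of both pairs most. Without INT replicate 1, CL minus INT was 0.56 and INT minus CH was 1.35, and without INT replicate 2 they were 2.26 and -0.35. The gap between the INT arrays, 1.71 log2 units, was reached by 3.63% of all probe sets.

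**Figure D1:**
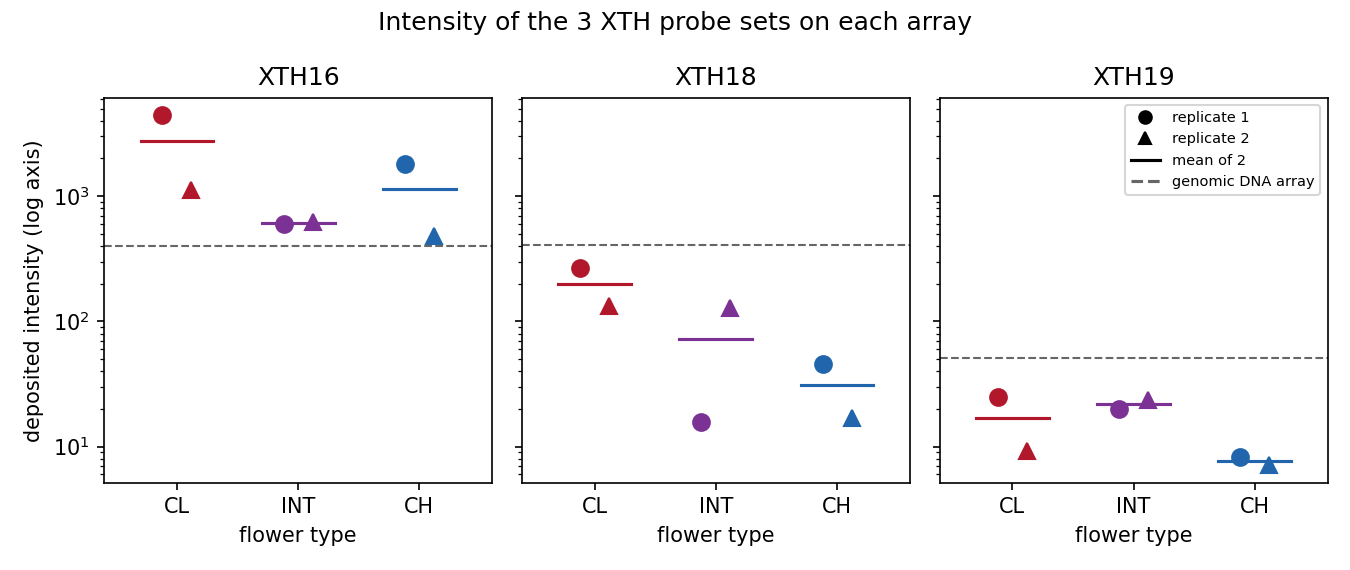
Deposited intensity (log axis) of XTH16, XTH18 and XTH19 on each RNA array, with CL, INT and CH from left to right, circles for replicate 1, triangles for replicate 2, a short line at the mean of 2 arrays and a dashed line at the intensity on the genomic DNA array. The CL points of XTH18 lie above its CH points, the replicates of XTH16 stand far apart in CL and CH but not in INT, and all XTH19 points lie below 25.

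XTH16 was the brightest of the 3 probe sets relative to the other probe sets of each array. Its standard deviation within groups, pooled over the flower types on the log2 scale, was 1.13, against 0.80 for XTH18 and 0.16 for XTH19, although in INT the replicates of XTH18 stood farther apart. Its intensity was 4408 and 1126 on the CL arrays, 599.5 and 619.0 on the INT arrays, and 1801 and 482.8 on the CH arrays, replicate 1 first. The INT arrays lay close together between the CH arrays and below both CL arrays, while the ranges of CL and CH overlapped. Mean log2 level was 11.16 ± 1.43 in CL, 9.33 ± 0.01 in INT and 9.96 ± 1.34 in CH (SD, n = 2 each).

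CL minus INT for XTH16 was 1.83 ± 0.73 log2 units (SE), with an interval from 0.14 to 3.52 and an unadjusted limma p of 0.0370, against 4.4% of all probe sets at an unadjusted p under 0.05. It did not pass, with a limma adjusted p of 0.985. Against CH, XTH16 differed by 1.20 in CL with an interval from -0.49 to 2.88, and by -0.63 in INT with an interval from -2.32 to 1.05 (limma adjusted p of 0.9999 and 0.984). From high to low the means ran CL, CH, INT, and the intervals between neighbours in that order included 0. Single arrays decided these values. CL minus INT was 0.84 without CL replicate 1 and 2.80 without CL replicate 2, and CL minus CH was 0.19 without CL replicate 1, 2.18 without CL replicate 2, 2.16 without CH replicate 1 and 0.26 without CH replicate 2. INT minus CH stood at 0.32 without CH replicate 1 and at -1.57 without CH replicate 2.

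The replicates of XTH16 stood far apart in CL and CH. Replicate 1 was 3.91 times as bright as replicate 2 in CL, 0.97 times in INT and 3.73 times in CH. On the log2 scale the CL gap of 2.02 was reached by 2.07% of all probe sets and the CH gap of 1.89 by 2.55%. The pooled standard deviation of XTH16 lay at the 97.9th percentile of all probe sets, whose median was 0.35. A control probe set for 25S ribosomal RNA was also brighter on replicate 1, 4.64 times in CL, 3.11 times in INT and 18.2 times in CH, and its part in the XTH16 values was not tested.

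XTH19 was dim on every array. Its intensity was 24.7 and 9.28 on the CL arrays, 20.1 and 23.6 on the INT arrays, and 8.22 and 7.12 on the CH arrays, replicate 1 first. All of these values lay below the offset of 28.2 and within the lowest part of their array, at the 1.74th to the 9.004th percentile of all probe sets. Both INT arrays and both CL arrays were above both CH arrays, and INT lay within the range of CL. Whether XTH19 exceeded background was not tested either.

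Mean log2 level of XTH19 was 5.47 ± 0.27 in CL, 5.65 ± 0.02 in INT and 5.17 ± 0.02 in CH (SD, n = 2 each). INT minus CH was 0.48 ± 0.25 (SE), with an interval from -0.09 to 1.05, an unadjusted limma p of 0.0864, where 4.76% of all probe sets were under 0.05, and an adjusted p of 0.983. CL minus CH was 0.30 with an interval from -0.27 to 0.87 (limma adjusted p = 0.9999), and CL minus INT was -0.18 with an interval from -0.76 to 0.39 (limma adjusted p = 0.985). The means ran INT, CL, CH from high to low, and the intervals between neighbours in that order included 0. With an offset of 1 the same differences were 1.41, 0.91 and -0.49, and with an offset of 141.2 they were 0.13, 0.08 and -0.05. Without CL replicate 1, CL minus CH was 0.11 and CL minus INT was -0.37, and without CL replicate 2 they were 0.49 and 0.01.

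**Figure D2:**
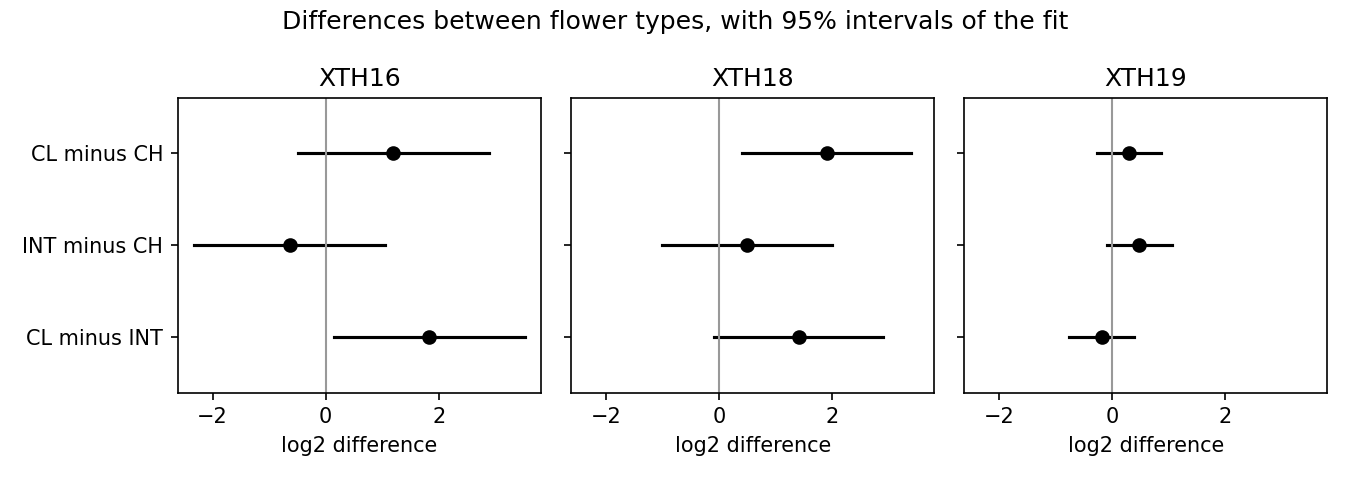
Log2 differences between flower types for XTH16, XTH18 and XTH19 (points) with 95% intervals of the limma fit (lines), CL minus CH at the top, INT minus CH below it and CL minus INT at the bottom. The intervals of XTH18 in CL minus CH, from 0.41 to 3.41, and of XTH16 in CL minus INT, from 0.14 to 3.52, lie above 0, and the other 7 cross it.

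Taking the 3 genes side by side, each had a higher mean in CL than in CH, as did 49% of all probe sets. Both CL arrays lay above both CH arrays for 2 of 3, XTH18 and XTH19, against 13.9% of all probe sets. The same separation of INT above CH held for XTH19 alone, against 16.4% of all probe sets. All XTH19 values lay below the offset, and its nearest CL and CH arrays were at 9.28 and 8.22. CL lay above INT on all arrays for XTH16 and XTH18, against 17% of all probe sets. These comparisons share arrays, each kind of flower being used in 2 of them. Only XTH18 followed the order of means CL, INT, CH, which 14.8% of all probe sets did. In a joint F-test over the 3 flower types, limma gave unadjusted p of 0.0462 for XTH18, 0.0938 for XTH16 and 0.204 for XTH19, where 4.2% of all probe sets were under 0.05 and 0% passed, and each adjusted p was 0.996.

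On the deposited scale, the arrays that set the levels differed from gene to gene. CL replicate 1 was the brightest array for all 3 genes, although after normalization INT replicate 2 was slightly above it for XTH19 (5.67 against 5.66 on the log2 scale). The dimmest deposited array was CH replicate 2 for XTH16 and XTH19 and INT replicate 1 for XTH18. INT replicates 1 and 2 were nearly equal for XTH16 and XTH19 and 8.10 times apart for XTH18.

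**Figure D3:**
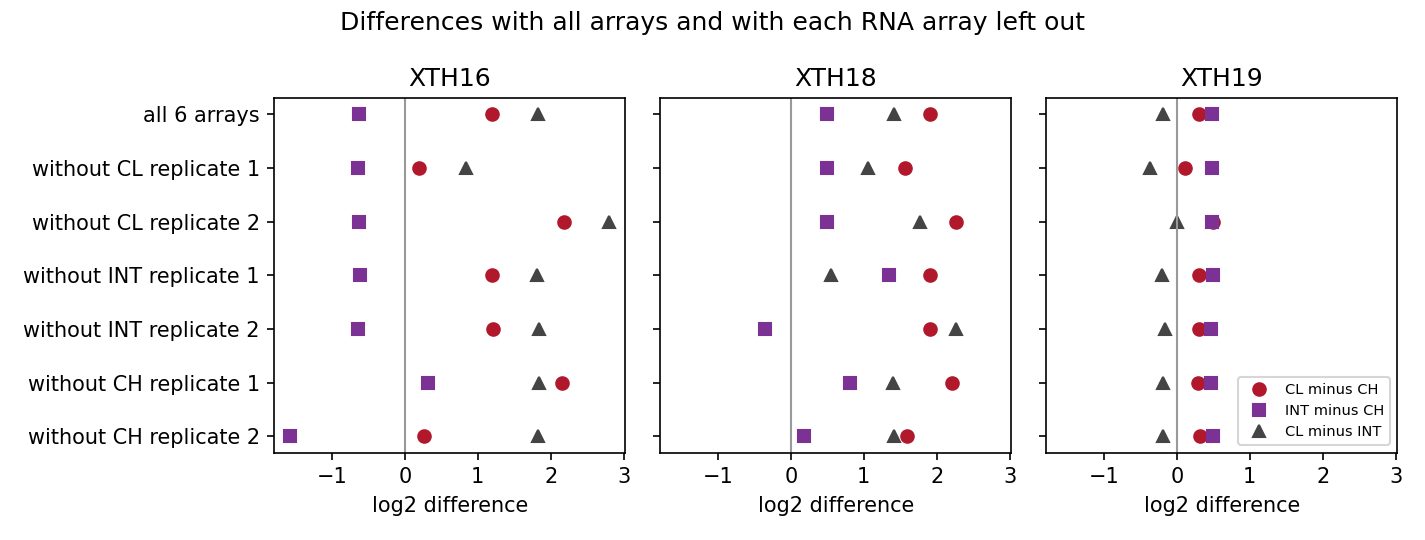
Log2 differences of XTH16, XTH18 and XTH19 with all 6 RNA arrays (top) and with each RNA array left out in turn, as circles for CL minus CH, squares for INT minus CH and triangles for CL minus INT. CL minus CH of XTH18 stays between 1.56 and 2.27, while that of XTH16 runs from 0.19 to 2.18.

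The genomic DNA array shows how strongly Cardamine DNA bound each set of Arabidopsis probes, as a single array with no replicate. XTH16 had a genomic DNA intensity of 401.9 and XTH18 of 406.1, at the 50.4th and 50.8th percentile of all probe sets, whose median was 397.7. XTH19 had 51.1, at the 10.6th percentile, below the 154.9 that bounds the lowest 25%. On the RNA arrays XTH16 stood between the 67.7th and the 98.0th percentile and XTH18 between the 6.44th and the 46.0th. XTH16 and XTH18, with genomic DNA signals near the middle of the array, thus took different places among the RNA signals. For XTH19 low RNA and weak binding to the probes cannot be told apart. Differences of one probe set between flower types compare the same probes, but a probe set that binds weakly gives them less range.

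**Figure D4:**
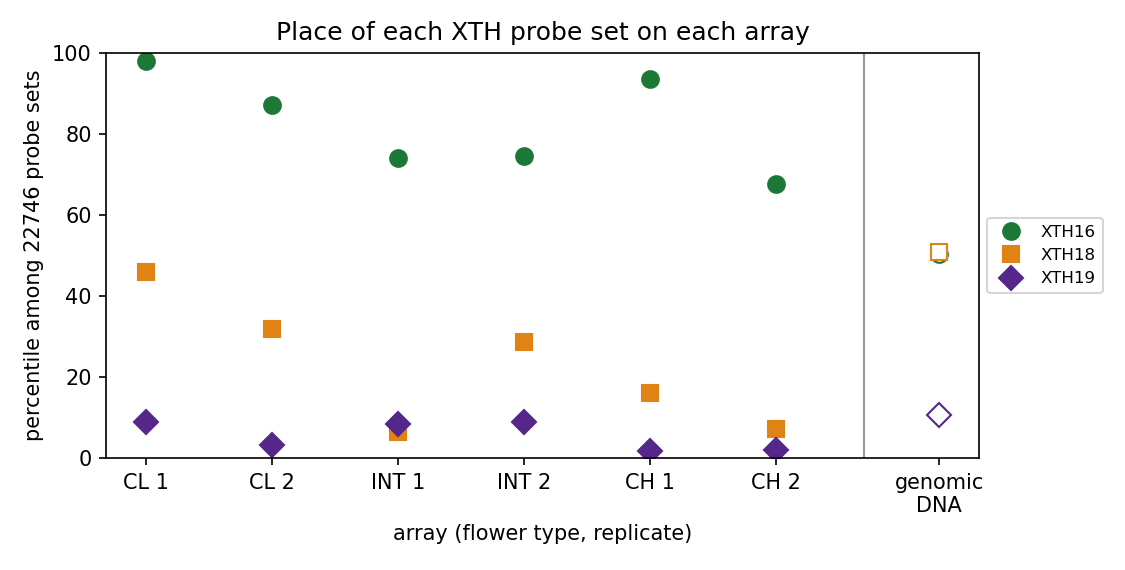
Percentile of XTH16 (circles), XTH18 (squares) and XTH19 (diamonds) among 22746 probe sets on each RNA array, and on the genomic DNA array at the right (open symbols). XTH16 lies above its genomic DNA percentile of 50.4 on all 6 RNA arrays, and XTH18 lies below its 50.8 on all 6.

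The annotation named 7 further genes of the XTH family, and none of them passed in any contrast. In CL minus CH, 4 had higher and 3 lower means, with a median difference of 0.06 against -0.01 over all probe sets. In INT minus CH, 2 had higher and 5 lower means, with a median of -0.18 against -0.01. In CL minus INT the counts were 4 higher and 3 lower, with a median of 0.24 against 0.002. None of the 7 had an unadjusted limma p under 0.05 in any contrast.

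XTH20, the subgroup relative of XTH18 and XTH19, had an intensity of 389.2 and 122.2 on the CL arrays, 140.0 and 91.0 on the INT arrays, and 188.8 and 155.2 on the CH arrays. Its CL arrays lay on either side of both CH arrays, and both INT arrays lay below CH. The difference of CL minus CH was 0.34 with an interval from -0.98 to 1.66. XTH21, which takes part in root growth in Arabidopsis, was dim, at 33.3 and 14.6 in CL, 8.98 and 11.1 in INT, and 12.1 and 5.77 in CH. Its CL arrays lay above all others, with CL minus CH at 0.46 (interval from -0.11 to 1.04, limma adjusted p = 0.9999). The genomic DNA signal of XTH21 stood at the 71.5th percentile.

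The other family genes named here had intervals that included 0. EXGT-A3, also called XTH27 and known from vein development in Arabidopsis leaves, differed by 0.06 in CL minus CH, with an interval from -0.74 to 0.86. XTH32 differed by -0.03, with an interval from -0.70 to 0.63. XTH33, a family member predicted to be anchored in the membrane, differed by 0.31 in CL minus CH and by -0.65 in INT minus CH, with INT replicate 2 at 58.4 and INT replicate 1 at 403.7. XTH29 had the lowest difference of CL minus CH among the 7, -1.05 with an interval from -2.75 to 0.65, and its genomic DNA signal lay at the 5.44th percentile.

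**Figure D5:**
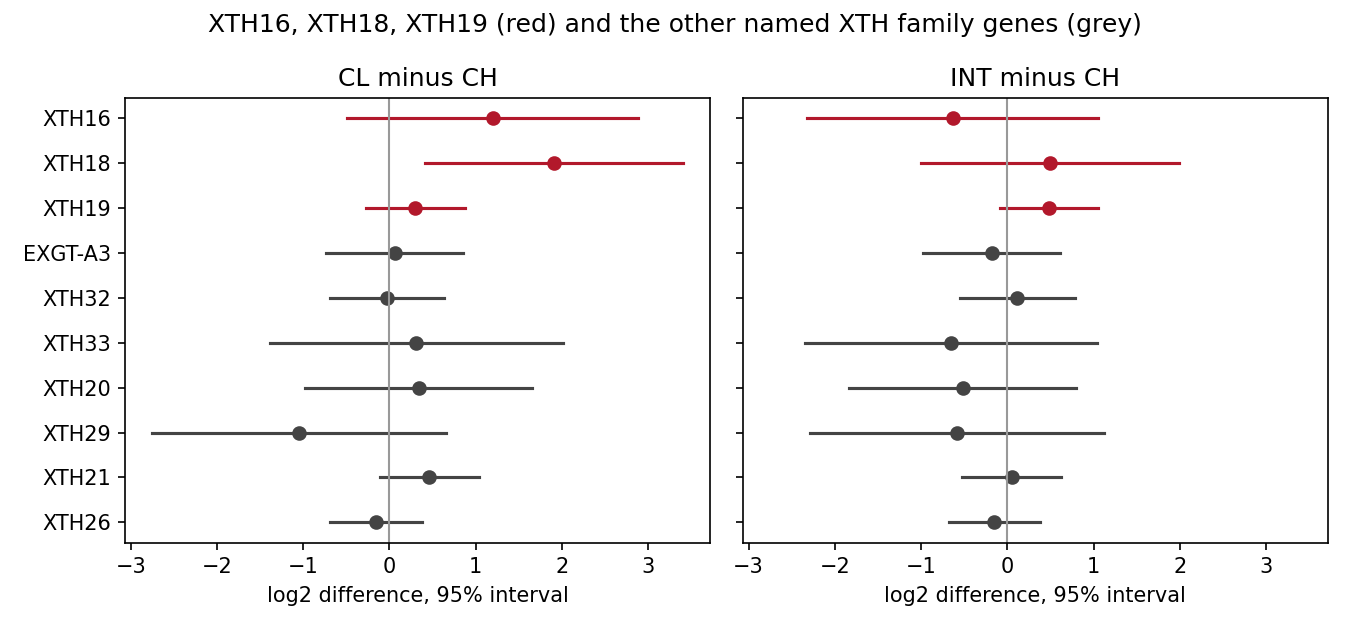
Log2 differences (points) and 95% intervals of the limma fit (lines) for XTH16, XTH18 and XTH19 (red) and the 7 other named XTH family genes (grey), CL minus CH at the left and INT minus CH at the right. XTH18 in CL minus CH is the only gene shown whose interval does not reach 0.

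Genes that supply or share the wall with XTH enzymes gave no call. Of the genes for xyloglucan synthesis and trimming, 3 were named by the annotation, all of them CSLC genes for the enzymes that build the glucan backbone. In CL minus CH, 1 had a higher and 2 had lower means, with a median difference of -0.06. The counts were 0 higher and 3 lower in INT minus CH, with a median of -0.13, and 2 higher and 1 lower in CL minus INT, with a median of 0.07. In CL minus CH the difference was -0.06 for CSLC5 (interval from -0.61 to 0.49) and 0.18 for CSLC6 (interval from -0.54 to 0.91). Of 18 expansins, which loosen the wall without cutting its polymers, 8 had higher and 10 lower means in CL than in CH, with a median of -0.05. In INT minus CH, 10 were higher and 8 lower, with a median of 0.05. In CL minus INT, 11 were higher and 7 lower, with a median of 0.20. Both CL arrays lay above both INT arrays for 8 of 18, against 17% of all probe sets, and below them for 2. On the deposited values EXPA8, EXPA9 and EXPA16, which are among the 8, overlapped. Both CL arrays lay above both CH arrays for 5, against 13.9% of all probe sets, and below them for 1. On the deposited values EXPA9, which is among the 5, overlapped, while EXLA3, which is not, had both CL arrays above. Both INT arrays lay above both CH arrays for 3, against 16.4% of all probe sets, and below them for 4. The share of all probe sets lying below was not counted in any contrast, so the counts below have no background beside them. The brightest expansins, EXPA15 and EXPA4, differed by -0.17 and 0.01 in CL minus CH. An unadjusted limma p under 0.05 in that contrast was found for 2 of the 18, against 3.53% of all probe sets. They were EXLA1 (1.54) and EXPA7 (1.08), named after their values were seen, each with a limma adjusted p of 0.9999. The genomic DNA signal stood at the 7.90th percentile for EXLA1 and the 64.05th for EXPA7. On the CH arrays EXLA1 had an intensity of only 46.7 and 29.1. COB, an anchored protein needed for oriented cellulose deposition, was the single gene measured of the cellulose list and differed by 0.39 in CL minus CH, with an interval from -0.28 to 1.05. None of these 22 genes passed in any of the 3 contrasts, where limma called 0% of all probe sets.

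The genes with the profile most like each member were sought among probe sets with 1 gene, a mean above the median and a range of at least 1 log2 unit, by Pearson's r over the 6 RNA arrays. With so few arrays and 1671 or 1672 candidates high values are common, and they are given as a description. For XTH16, 45 candidates had r above 0.9, led by AT4G16140 (0.985), AT5G14050 (0.984), COR15B (0.983), AT2G45180 (0.981) and AT5G41560 (0.974). COR15B encodes a cold-regulated chloroplast protein, and its log2 level was 9.36 and 8.55 in CL, 8.36 and 8.23 in INT, and 8.76 and 8.27 in CH. For XTH18 the count was 3, and the nearest were AT2G18580 (0.939), AT1G23040 (0.926), AT4G33480 (0.914), ACT11 (0.898), an actin, and AT5G55450 (0.898). For XTH19 the count was 6, and the nearest were cox2 (0.980), a mitochondrial gene for a subunit of cytochrome c oxidase, AT1G34160 (0.968), DL1D (0.957), AT1G06960 (0.921) and AT5G08340 (0.916). The XTH19 values matched here all lay below the offset of 28.2, and whether they exceeded background was not tested.

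Over the series, median intensity per RNA array ran from 260.8 to 301.8. The number of arrays limits the precision, and the 95% interval of a median probe set reached 0.90 log2 units above and below its difference. Levels of tissue markers are given where the annotation names them. Of 20 markers of the floral meristem and flower primordium, 5 were named (AGL24, UFO, JAG, CLV3 and PTL), and their summed intensity was 758.4 and 1317 in CL, 1028 and 988.2 in INT, and 1337 and 1180 in CH. The other 15, LFY and AP1 among them, were not analysed here. Of 27 markers of leaf and other green tissue, 3 were named (PSAN, LHCB4.1 and RCA), with sums from 13737 to 18112 in CL, from 18051 to 18152 in INT and from 12194 to 16692 in CH. Of 13 stem and vascular markers 0 were named. CLV3 and PTL stood at percentiles from 2.79 to 31.2 on the RNA arrays. With so few markers named and no detection calls, these levels cannot settle which tissue was sampled. Some single markers differed along with the XTH contrasts at an unadjusted limma p under 0.05, none of them passing the adjustment, and they were named after their values were seen. At that p limma listed 3.53% of all probe sets in CL minus CH, 4.76% in INT minus CH and 4.4% in CL minus INT. CLV3 was 1.03 log2 units higher in CL than in CH (limma adjusted p = 0.9999). Both CL arrays lay above both CH arrays, as for 13.9% of all probe sets. Of the 5 floral markers, 1 had a higher and 4 had lower means in CL than in CH. Their median difference was -0.18. PTL differed by -1.07 in INT minus CH (limma adjusted p = 0.983), where 2 of the 5 floral markers were higher and 3 lower. RCA differed by 1.06 in INT minus CH and by -0.88 in CL minus INT (limma adjusted p of 0.983 and 0.985). All 3 leaf markers were higher in INT than in CH and lower in CL than in INT. The part of these tissues in the XTH values was not tested.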

How the data were processed

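The values were the deposited intensities of 7 Affymetrix ATH1 arrays. They were linear and positive, and the mean of each array without the outer 2% of values at either end was 500.0. Per the labels, the authors used the genomic DNA array to calibrate the RNA intensity values, by the method of Hammond and colleagues. Which software summarized the probes, and the DNA threshold, is not given in the sources used here. All 22810 probe sets had a value on every array, and 64 control probe sets were kept out of the tests. Arrays have no read depth.

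An offset of 28.2, 1 part in 10 of the median RNA intensity, was added before log2, and the RNA arrays were quantile normalized because their medians ranged over 0.19 log2 units. The 6 RNA arrays were fitted by flower type in limma 3.58.1 (R 4.3.3), with a mean-variance trend in eBayes. All p-values are two-sided, Benjamini-Hochberg adjustment covered 22746 probe sets, and the threshold was 0.05. The fit was tested on simulated data. The platform annotation gave 13513 probe sets 1 gene, 503 several and 8794 none. Members, lists and tests were chosen with earlier results of these data known. Further genes were named by fixed counts, the 6 brightest XTH genes, the 2 brightest of each other wall list and the 5 most like each member, and XTH26 is shown in a figure. Plots were made in matplotlib 3.10.9 (Python 3.11.15).

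Each result was recomputed with other normalizations and offsets, without dim probe sets, without probe sets of low genomic DNA signal, with other variance models, with a replicate block, with only the arrays compared, with only probe sets with 1 gene, and without each RNA array.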

Additional observations from a re-analysis of the deposited data

How the results depend on the processing

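Over 17 alternatives, none of the 144 recomputed differences of XTH16, XTH18 and XTH19 passed, the lowest limma adjusted p being 0.573, and 3 changed direction. INT minus CH of XTH16 was 0.32 without CH replicate 1 (range over arrays left out, -1.57 to 0.32), INT minus CH of XTH18 was -0.35 without INT replicate 2 (range -0.35 to 1.35), and CL minus INT of XTH19 was 0.0065 without CL replicate 2 (range -0.37 to 0.0065). The causes were not tested. Each change of direction came with a single array left out. Filters, variance models, the replicate block, only the arrays compared and only probe sets with 1 gene returned the main differences unchanged. Those settings could not change a direction and bear only on the p-values. The filter on dim probe sets removed XTH18 and XTH19, and the filter on genomic DNA removed XTH19, so those settings gave no value for them.

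Over all probe sets limma called 0 in every contrast and alternative run. At an unadjusted p under 0.05 it listed 803 probe sets in CL minus CH, 1082 in INT minus CH and 1001 in CL minus INT. These became 428, 646 and 563 with only probe sets with 1 gene, which are fewer to test. Without the dimmest 25%, which also leaves fewer to test, the counts became 497, 713 and 671 in the same order.

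The labels give each flower type replicates 1 and 2 and link them by number alone. Whether replicates of equal number were handled together was not tested. Replicate differences correlated across probe sets at 0.25 for CL and CH, -0.05 for INT and CH, and -0.05 for CL and INT. With replicate number as a block, which in this balanced design cannot alter the differences and bears only on their spread, CL minus CH was 1.20 for XTH16, 1.91 for XTH18 and 0.30 for XTH19 (limma adjusted p = 0.9995 each, unadjusted 0.0364, 0.0262 and 0.3004), and no call changed. Within replicate 1 and within replicate 2, CL minus CH was 1.26 and 1.13 for XTH16, 1.95 and 1.87 for XTH18, and 0.50 and 0.10 for XTH19.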
